A study of Mus musculus with 6 samples.

Results

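Genes of the tumour necrosis factor (TNF) superfamily, 15 ligands and 26 receptors, were followed in mouse CD4+ T cells treated with icilin, a man-made cooling agent and agonist of the ion channels TRPM8 and TRPA1. The 41 genes were listed by name, and each was found on the array through a probe set annotated with that symbol alone, among 22180 genes tested in all. The cells were CD4+ T cells purified from spleens of wild-type C57BL/6 females about 8 weeks old. They were first activated for 24 h with antibodies to CD3 and CD28 (10 µg/mL each), which stand in for antigen and costimulation, and this activation was common to all samples. They then received 100 µM icilin in dimethyl sulfoxide (DMSO) or the matching amount of DMSO, the vehicle, for a further 24 h. Each group held 3 Affymetrix Mouse Gene 2.0 ST arrays, and the same 3 mice supplied cells to both groups.

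TNF superfamily ligands are mostly trimeric proteins of the cell surface, which can be shed, and they act by clustering receptors on the same or a neighbouring cell. Receptors with a cytoplasmic death domain can start caspase-dependent death, whereas the others bind TRAF adaptors and pass the signal to NF-κB and MAP kinases; decoy receptors bind ligand and start no death signal. In activated T cells receptors such as 4-1BB, OX40 and GITR are induced after antigen recognition and sustain division and survival, and the cells in turn display or secrete lymphotoxins, TNF, CD40 ligand and Fas ligand.

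All values are log2 levels after RMA, which normalizes arrays to each other, and differences are icilin minus vehicle. A gene was said to rise or fall, or was called, at a limma adjusted p under 0.1 together with a change of at least 1.5-fold (0.585 on the log2 scale), the limits in the series design text. Errors are SD of 3 arrays beside a level and SE beside a difference. The median SE over all genes was 0.09, and the number of arrays limits the precision. On 3 against 3 arrays an exact two-sided permutation test of a single gene cannot give a p below 0.1, so calls rest on limma, which pools the spread over genes. Arrays correlated across genes, which are not independent replicates, at r of 0.9957 to 0.9962 within a group and 0.9939 to 0.9942 between groups. The array sampled a whole culture, where fewer cells of a type and less RNA per cell cannot be told apart.

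The T cell identity of the samples was borne out by its markers. The 6 measured T cell markers lay between 9.00 (Cd3d) and 11.66 (Cd3e) in vehicle, and their mean level ran from 10.47 to 10.56 over the vehicle arrays and from 10.55 to 10.62 over the icilin arrays. All 8 myeloid and dendritic cell markers were below the median gene of the array (Adgre1 at 2.86 to Zbtb46 at 4.21 in vehicle), and their mean stood at 3.56 to 3.59 in vehicle and 3.49 to 3.61 in icilin. Plasma cell markers (3 genes, Jchain at 2.94 to Mzb1 at 5.90) had a mean of 4.30 to 4.66 in vehicle and 4.43 to 4.46 in icilin. The list for natural killer cells and CD8 T cells (6 genes, Klrb1c at 3.19 to Cd8b1 at 6.47) had a mean of 4.17 to 4.32 in vehicle and 4.08 to 4.17 in icilin, a narrow gap between the groups. None of these 4 lists held a called gene by limma or SAM. At an unadjusted p under 0.05 they held 3 higher genes (1 T cell, 1 myeloid, 1 natural killer or CD8). The lower ones by that p were also 3 (1 myeloid, 2 natural killer or CD8). All genes gave 9.09% higher and 8.05% lower by that p. Short of 1.5-fold, Cd28 was higher (0.34, limma adjusted p = 0.0529) and Klrd1 lower (-0.27, limma adjusted p = 0.0843). Cd8b1 was higher on every icilin array (0.39, limma adjusted p = 0.1675), against the mean of its list. B cell markers are given below with the B cell receptors of the family.

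Within the superfamily, 3 genes fell and 2 rose with icilin. The costimulatory receptor gene Tnfrsf9 (4-1BB) fell 2.03-fold, and the ligand genes Tnfsf14 (LIGHT) and Ltb (lymphotoxin beta) fell 1.53-fold and 1.52-fold. The receptor genes Tnfrsf26 and Tnfrsf23 rose 2.18-fold and 1.60-fold. Over all 22180 genes 1.03% were called lower and 0.370% higher, 1.40% together, against 3 lower and 2 higher of 41 here; SAM, the study's own test, called the same 5 members and 1.48% of all genes. Without the fold limit 7 members were lower and 4 higher at an adjusted p under 0.1, where all genes gave 3.00% lower and 2.27% higher (5.28% together). Brightness bears on these shares: 34 of the 41 members, those 11 among them, were above the median gene, and in that upper part of the array 5.13% of genes were lower and 3.89% higher by the same rule. With dim genes left out, 200 of 11090 genes were called lower and 67 higher, with the same 5 members called. The arrays of the groups did not overlap in 15 lower and 7 higher members, where all genes gave 10.5% and 13.6%. All of these members were above the median gene, and the share in that part of the array was not counted. The median difference over the 41 members was -0.05, against 0.01 over all genes, with 23 negative and 18 positive differences. For 32 members the 95% interval of the difference lay wholly inside 1.5-fold in both directions.

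**Figure D1:**
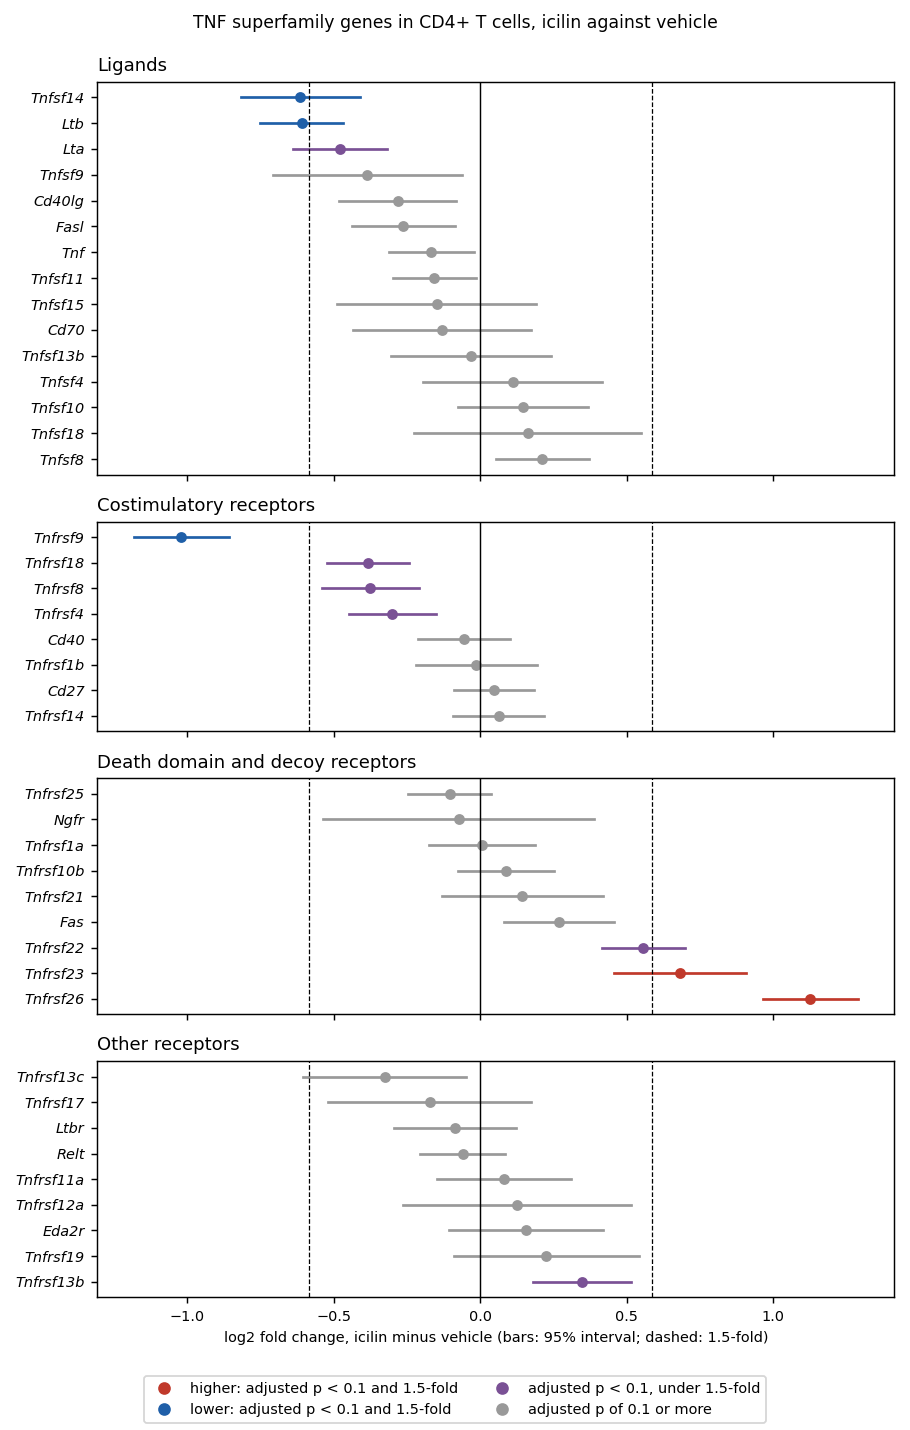
Log2 fold change, icilin minus vehicle, of the 41 genes (points) with its 95% interval (bars), in panels by role; dashed lines mark 1.5-fold and n = 3 arrays per group. Tnfrsf9, Tnfsf14 and Ltb lie beyond the lower line, Tnfrsf23 and Tnfrsf26 beyond the upper one, and most other intervals sit between the lines.

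Of 15 ligand genes 2 fell and 13 were not called, where 1.03% of all genes were called lower. A negative difference was seen in 11 of the 15, with a median of -0.16, against 47.0% of all genes and a median of 0.01. Ltb encodes the chain that holds the lymphotoxin heterotrimer in the membrane, where it engages the lymphotoxin beta receptor. It measured 10.55, 10.58 and 10.54 on the vehicle arrays and 9.99, 9.91 and 9.94 on the icilin arrays. Every icilin array was thus well below every vehicle array, and the difference was -0.61 ± 0.06 (limma adjusted p = 0.00364, n = 3 per group). The size lies close to the fold limit: with each array centred on its median gene the difference was -0.58 and no longer counted as a call. Its partner Lta, which encodes the soluble lymphotoxin alpha chain, stood at 10.81, 10.84 and 10.87 in vehicle and at 10.28, 10.36 and 10.44 in icilin. The groups did not overlap here either, and the difference of -0.48 ± 0.07 had an adjusted p = 0.0148 by limma but was under 1.5-fold. Tnf itself, the founding cytokine of the family, differed by -0.17 ± 0.06 (10.43 ± 0.03 in vehicle, 10.26 ± 0.04 in icilin, SD, n = 3), with a limma adjusted p = 0.234.

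Tnfsf14 encodes LIGHT, a ligand of both HVEM and the lymphotoxin beta receptor. It measured 6.79, 6.52 and 6.76 in vehicle and 6.07, 6.07 and 6.08 in icilin. The icilin arrays were nearly equal while vehicle replicate 2 was the lowest of its group, and the difference was -0.61 ± 0.09 (limma adjusted p = 0.0140). Without vehicle replicate 1 or vehicle replicate 3 the difference was -0.56 or -0.58, short of 1.5-fold, with limma adjusted p of 0.0520 and 0.0636.

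None of the other ligand genes had an adjusted p under 0.1. Tnfsf9, which encodes the 4-1BB ligand, measured 6.38, 6.18 and 5.89 in vehicle and 5.60, 5.86 and 5.83 in icilin. The groups only just separated, and at -0.39 ± 0.14 (limma adjusted p = 0.216) its interval ran from -0.71 to -0.06. Cd40lg, whose product helps B cells and dendritic cells, differed by -0.28 ± 0.08 (limma adjusted p = 0.154). The death ligand gene Fasl differed by -0.26 ± 0.07 (limma adjusted p = 0.133), and Tnfsf11, which encodes RANK ligand, by -0.16 ± 0.06 (limma adjusted p = 0.244). In these 3 genes all icilin arrays were below all vehicle arrays. Tnfsf8, for the CD30 ligand, was the only ligand gene whose icilin arrays all lay above the vehicle arrays, at 0.21 ± 0.07 (limma adjusted p = 0.172). Limma and SAM called 0 ligand genes higher. At an unadjusted p under 0.05, 8 ligand genes were lower and 1, Tnfsf8, was higher. By that p 8.05% of all genes were lower and 9.09% higher, and 11.2% and 13.7% of those above the median gene. The remaining 6 overlapped between groups: the OX40 ligand gene Tnfsf4 (0.11), the TRAIL gene Tnfsf10 (0.15), the BAFF gene Tnfsf13b (-0.03), the DR3 ligand gene Tnfsf15 (-0.15), the GITR ligand gene Tnfsf18 (0.16) and the CD27 ligand gene Cd70 (-0.13). Tnfsf15, Tnfsf18 and Cd70 were below the median gene.

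Among 8 costimulatory receptor genes Tnfrsf9 fell and 3 others were lower short of 1.5-fold. Over all genes 1.03% were called lower, and 3.00% were lower without the fold limit. Above the median gene, where all 8 lie, the latter share was 5.13%. Tnfrsf9 encodes 4-1BB, an inducible receptor that supports survival of activated T cells through TRAF1 and TRAF2. It measured 11.43, 11.48 and 11.42 in vehicle and 10.33, 10.49 and 10.45 in icilin. The gap between the groups was many times the spread within either, at -1.02 ± 0.07 (limma adjusted p = 0.00102), and was -1.05 to -0.97 with single arrays left out. Tnfrsf18, for GITR, went from 10.83, 10.80 and 10.78 in vehicle to 10.39, 10.42 and 10.45 in icilin. The groups were clearly apart, and the difference was -0.38 ± 0.06 (limma adjusted p = 0.0206). A second probe set, annotated to both Tnfrsf18 and the predicted gene Gm16008 and so left out of the fit by gene, measured 6.07 in vehicle and 5.32 in icilin, a difference of -0.74 ± 0.12 (limma adjusted p = 0.0703 over all probe sets). This shared probe set passed both call limits, whereas the one with the symbol Tnfrsf18 alone stayed under 1.5-fold. Tnfrsf8, for CD30, stood at 8.31, 8.29 and 8.34 in vehicle and 7.84, 8.01 and 7.97 in icilin. It was lower on every icilin array, with a difference of -0.37 ± 0.07 (limma adjusted p = 0.0388). Tnfrsf4, for OX40, stood at 10.92, 11.03 and 11.01 in vehicle and at 10.69, 10.69 and 10.68 in icilin. The icilin arrays again were nearly equal and all below the vehicle arrays, with a difference of -0.30 ± 0.06 (limma adjusted p = 0.0541).

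For Tnfrsf8 and Tnfrsf4 the limma adjusted p passed above 0.1 when single arrays were left out (up to 0.126 and 0.177), and with the replicate number as a block it was 0.122 and 0.165, and for Tnfrsf18 0.106. The other 4 costimulatory receptor genes had small differences. Cd27, the CD70 receptor of resting and activated T cells, differed by 0.05 (9.18 ± 0.01 in vehicle, 9.22 ± 0.01 in icilin, SD, n = 3), Tnfrsf14, for HVEM, by 0.06, Tnfrsf1b, for TNF receptor 2, by -0.01, and Cd40, mainly a receptor of antigen-presenting cells, by -0.05. Their limma adjusted p ran from 0.688 to 0.958, and all 4 intervals lay within -0.22 to 0.22. Limma and SAM called 0 costimulatory receptor genes higher. At an unadjusted p under 0.05, 0 of these genes were higher and 4 lower, where genes above the median gene gave 13.7% and 11.2%.

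**Figure D2:**
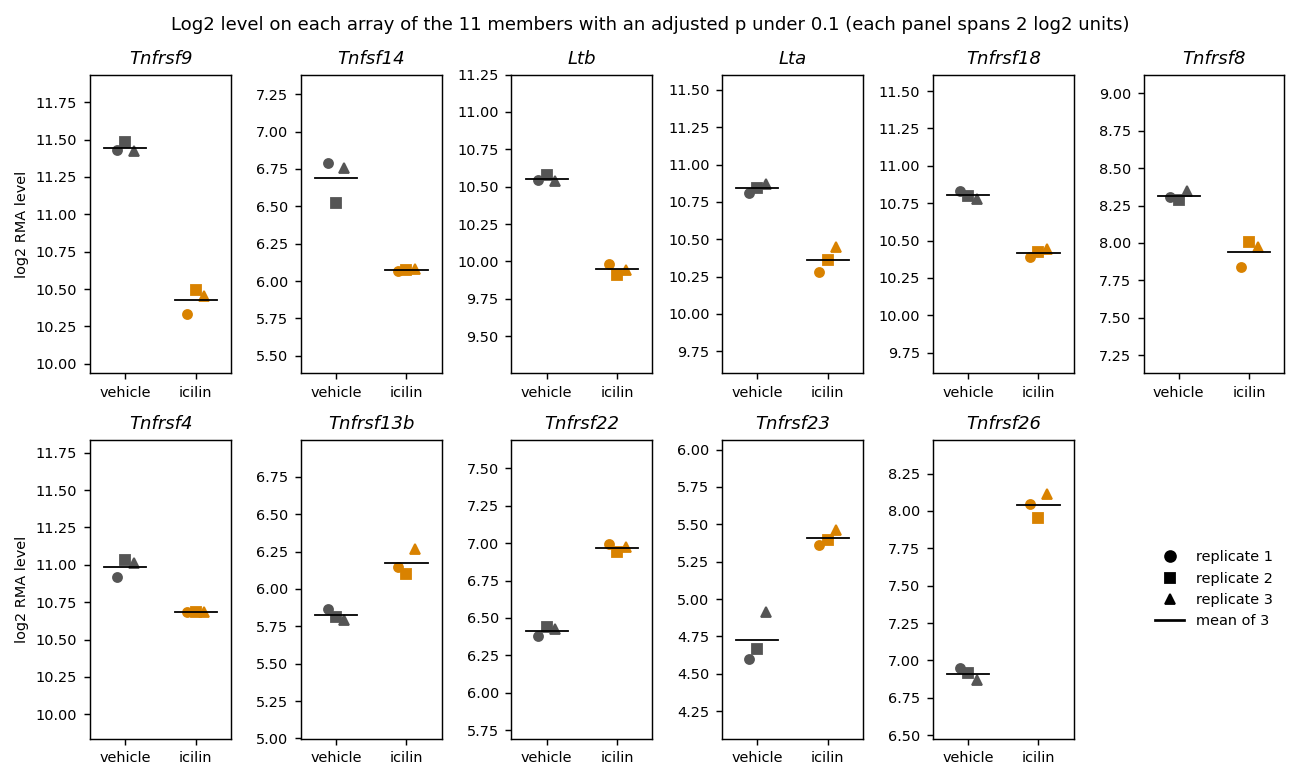
Log2 RMA level on each array (symbols by replicate number) and mean of 3 (line) for the 11 genes with a limma adjusted p under 0.1; panels have their own axes, each 2 log2 units high. In every panel the 3 icilin arrays lie entirely on one side of the 3 vehicle arrays, from Tnfrsf9 (-1.02) to Tnfrsf26 (1.13). The genes were picked by the adjusted p on these same arrays, so the gap is no separate support.

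Of 9 death domain and decoy receptor genes 2 rose and 1 more was higher short of 1.5-fold. These 3 are the mouse receptor genes Tnfrsf26, Tnfrsf22 and Tnfrsf23. Over all genes 0.370% were called higher, and 2.27% were higher without the fold limit. Above the median gene, where all 9 lie, the latter share was 3.89%. Tnfrsf22 and Tnfrsf23 encode decoy receptors for TRAIL, which lack a death domain. Tnfrsf26 stands in this group by its listed role, and whether it acts as a decoy was not tested. Tnfrsf26 measured 6.95, 6.92 and 6.87 in vehicle and 8.05, 7.96 and 8.12 in icilin. It had the largest rise of the family and no overlap, at 1.13 ± 0.07 (limma adjusted p = 0.000795), and 1.09 to 1.17 with single arrays left out. Tnfrsf23 measured 4.60, 4.66 and 4.91 in vehicle and 5.36, 5.39 and 5.46 in icilin. Its vehicle arrays, close to the median gene of the array (4.57), were less even than the icilin arrays, yet all were lower, and it rose by 0.68 ± 0.09 (limma adjusted p = 0.0138; 0.62 to 0.78 with single arrays left out). Tnfrsf22 measured 6.38, 6.44 and 6.42 in vehicle and 6.99, 6.94 and 6.97 in icilin. The groups were far apart relative to their spread, but the difference of 0.56 ± 0.06 (1.47-fold, limma adjusted p = 0.00481) stopped just under the fold limit, with Ltb and Tnfsf14 the called members nearest to it on the other side. Tnfrsf22, Tnfrsf23 and Tnfrsf26 are related neighbours, Tnfrsf22 and Tnfrsf23 the closest, and how far the probes of each read the transcripts of the others was not tested.

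Receptor genes with a death domain did not pass. Fas, the receptor of Fas ligand, stood at 7.97, 7.88 and 7.74 in vehicle and 8.20, 8.11 and 8.09 in icilin. All icilin arrays were higher, but the difference of 0.27 ± 0.08 had a limma adjusted p = 0.147. Tnfrsf10b, the mouse TRAIL receptor with a death domain, differed by 0.09 ± 0.07, Tnfrsf1a, for TNF receptor 1, by 0.01 ± 0.08, Tnfrsf21, for DR6, by 0.14 ± 0.12, Tnfrsf25, for DR3, by -0.10 ± 0.06, and the neurotrophin receptor gene Ngfr by -0.07 ± 0.20. The limma adjusted p of these 5 ran from 0.440 to 0.977. Their intervals excluded a change of 1.5-fold in the measured value, Ngfr's (-0.54 to 0.39) by the narrowest margin. Ngfr stood close to the median gene of the array (4.57), at 4.68 in vehicle and 4.60 in icilin.

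The 9 remaining receptor genes held no call by limma or by SAM. At an unadjusted p under 0.05, 1 was higher and 1 lower, where all genes gave 9.09% higher and 8.05% lower. Both encode receptors of the BAFF system of B cells. Tnfrsf13b, for TACI, stood at 5.87, 5.81 and 5.79 in vehicle and 6.15, 6.10 and 6.27 in icilin. It was higher on each icilin array, by 0.35 ± 0.07 (limma adjusted p = 0.0497, under 1.5-fold; up to 0.159 with single arrays left out and 0.149 with the replicate number as a block). Tnfrsf13c, for the BAFF receptor, stood at 6.59, 6.22 and 6.22 in vehicle and 5.93, 5.99 and 6.13 in icilin. It was lower throughout, with vehicle replicate 1 far above the rest, at -0.33 ± 0.12 (limma adjusted p = 0.225), and without vehicle replicate 1 the difference was -0.20. Tnfrsf17, for BCMA, differed by -0.17 ± 0.15. Of 6 measured B cell markers 1 rose, Ms4a1 (4.26, 3.99 and 3.96 in vehicle, 5.01, 5.15 and 5.09 in icilin; 1.01 ± 0.10, limma adjusted p = 0.00339), and 5 did not pass, among them Cd79a (0.09), which encodes a signalling chain of the B cell receptor. The markers ran from Cr2 at 2.92 to Cd79a at 5.50 in vehicle, and their mean was 4.34 to 4.47 in vehicle and 4.59 to 4.64 in icilin. Without Ms4a1 the mean of the other 5 was 4.42 to 4.52 in vehicle and 4.49 to 4.57 in icilin, so the groups overlapped. At an unadjusted p under 0.05, 2 of the 6 were higher, Ms4a1 and Pax5 (0.21, limma adjusted p = 0.283), and 0 lower. The share of all genes called higher was 0.370%, and 9.09% were higher by the unadjusted p. The part of B cell transcripts in the values of Tnfrsf13b and Tnfrsf13c was not tested. The lymphotoxin beta receptor gene Ltbr (-0.09), the RANK gene Tnfrsf11a (0.08), the TWEAK receptor gene Tnfrsf12a (0.13), the TROY gene Tnfrsf19 (0.23), the ectodysplasin receptor gene Eda2r (0.16) and Relt (-0.06) had limma adjusted p of 0.457 to 0.758. Tnfrsf11a, Tnfrsf17, Tnfrsf19 and Eda2r were below the median gene. Of superfamily genes outside the 41, Eda, Edar and Tnfrsf11b were measured and dim, with differences of 0.09, -0.02 and 0.11 and limma adjusted p of 0.678 to 0.948; limma and SAM called 0 of them, and 0 had an unadjusted p under 0.05.

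The differences of ligands and their receptors are set side by side here. The 4-1BB ligand and receptor genes were both lower (Tnfsf9 -0.39, Tnfrsf9 -1.02), though Tnfsf9 did not pass. For CD30 and OX40 the receptor was lower (Tnfrsf8 -0.37, Tnfrsf4 -0.30) and the ligand was not (Tnfsf8 0.21, Tnfsf4 0.11). For LIGHT and for the lymphotoxins the ligands were lower (Tnfsf14 -0.61, Ltb -0.61, Lta -0.48) and their receptor genes near 0 (Tnfrsf14 0.06, Ltbr -0.09, Tnfrsf1a 0.01, Tnfrsf1b -0.01). Fasl (-0.26) and Fas (0.27) had opposite signs, neither past the test. For TRAIL, the ligand (0.15) and the death receptor (0.09) were near 0 while both decoy receptor genes were higher (Tnfrsf22 0.56, Tnfrsf23 0.68). For GITR the receptor was lower (Tnfrsf18 -0.38) and the ligand not (Tnfsf18 0.16). The remaining pairs had no gene with an adjusted p under 0.1 except Tnfrsf13b: CD27 (Cd70 -0.13, Cd27 0.05), CD40 (Cd40lg -0.28, Cd40 -0.05), RANK (Tnfsf11 -0.16, Tnfrsf11a 0.08), DR3 (Tnfsf15 -0.15, Tnfrsf25 -0.10) and BAFF (Tnfsf13b -0.03, Tnfrsf13c -0.33, Tnfrsf13b 0.35). The differences within these sets were not tested.

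Many of the genes lie beside another member in the mouse genome. By the order of protein-coding genes in RefSeq (GRCm38.p6), 21 of the 41 stand at 8 loci with at most 3 coding genes between members. Tnfrsf26, Tnfrsf22 and Tnfrsf23 follow each other on chromosome 7 with no coding gene between them, and all 3 were higher. The nearest coding genes outside this run, chosen after the values were seen, were not called: Cars, for a cysteinyl-tRNA synthetase, differed by 0.32 ± 0.07 (limma adjusted p = 0.0664), Nap1l4 by -0.11, Osbpl5 by -0.12 and Mrgprg by -0.10. On chromosome 17 Ltb, Tnf and Lta stand in a row, with the middle gene closest to 0 (-0.61, -0.17 and -0.48). Tnfsf9, Cd70 and Tnfsf14 also follow each other on this chromosome (-0.39, -0.13 and -0.61). Of these, Cd70 was below the median gene, at 3.14 in vehicle and 3.01 in icilin. Trip10, a coding gene beyond Tnfsf14 at that locus and no member, differed by -0.33 ± 0.08 (limma adjusted p = 0.0775). No measured flanking gene of the 8 loci was called, and Cars and Trip10 were those with an adjusted p under 0.1. Tnfrsf4 and Tnfrsf18 are adjacent on chromosome 4 and were both lower (-0.30 and -0.38), whereas of the adjacent Tnfrsf1b and Tnfrsf8 only Tnfrsf8 was (-0.01 and -0.37). At the chromosome 6 locus Cd27, Ltbr and Tnfrsf1a stayed within -0.09 and 0.05. The other 2 loci, of Tnfsf4, Tnfsf18 and Fasl and of Tnfsf15 and Tnfsf8, held no member with an adjusted p under 0.1.

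**Figure D3:**
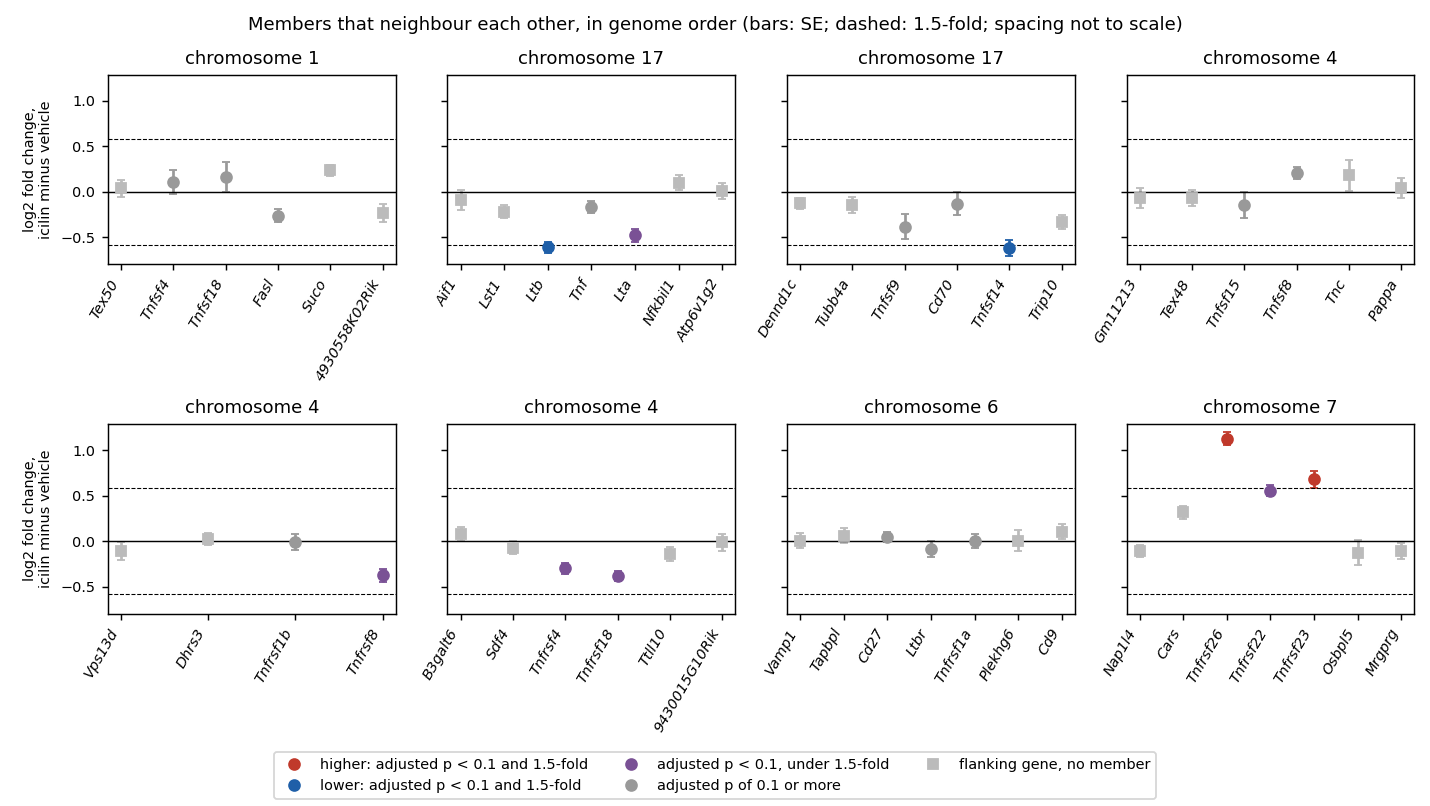
Log2 fold change, icilin minus vehicle, with SE (bars, n = 3 arrays per group), of members at 8 loci (circles) and of the measured ones among the 2 flanking coding genes on each side (squares), in genome order and not to scale; dashed lines mark 1.5-fold. Tnfrsf26, Tnfrsf22 and Tnfrsf23 on chromosome 7 lie at 0.56 to 1.13 while Nap1l4, Osbpl5 and Mrgprg beside them lie near 0 and Cars at 0.32.

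Promoters of 5 members with an adjusted p under 0.1 are shown, 4 of them chosen because they hold a motif match. Genes of this family are textbook targets of NF-κB and AP-1, factors that T cell activation turns on. RefSeq promoters (GRCm38.p6, 250 bases before to 50 after the start) were found for 33 of the 41 genes, 37 sequences in all. Each was searched on both strands for the consensus motif of NF-κB and for the AP-1 site TGANTCA; capitals below mark the matches, and no NF-κB match overlapped an AP-1 match. Sequences run 5′ to 3′ on the gene's strand. Ltb (chr17:35194257-35194556, plus strand) has an NF-κB match that begins at -87 from the start. The downstream one of the 2 starts of Tnfrsf9 (chr4:150927749-150928048, plus strand) has overlapping NF-κB matches from -43 and -42 and an AP-1 site from -15. Tnfrsf8 (chr4:145315115-145315414, minus strand) has overlapping NF-κB matches from -168 and -167 and an AP-1 site from -132. Tnfsf14 (chr17:57194132-57194431, minus strand) has an AP-1 site from -160, and Tnfrsf23 (chr7:143685826-143686125, minus strand), the promoter on hand from the chromosome 7 run, has neither. The upstream start of Tnfrsf9 and the promoters of Lta, Tnfrsf18, Tnfrsf4 and Tnfrsf13b, not printed, hold neither motif.
Ltb: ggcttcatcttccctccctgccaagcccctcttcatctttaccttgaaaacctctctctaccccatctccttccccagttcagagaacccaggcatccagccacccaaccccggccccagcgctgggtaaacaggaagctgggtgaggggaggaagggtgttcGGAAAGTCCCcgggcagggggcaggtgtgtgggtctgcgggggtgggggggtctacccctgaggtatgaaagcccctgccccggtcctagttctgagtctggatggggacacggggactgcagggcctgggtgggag
Tnfrsf9, downstream start: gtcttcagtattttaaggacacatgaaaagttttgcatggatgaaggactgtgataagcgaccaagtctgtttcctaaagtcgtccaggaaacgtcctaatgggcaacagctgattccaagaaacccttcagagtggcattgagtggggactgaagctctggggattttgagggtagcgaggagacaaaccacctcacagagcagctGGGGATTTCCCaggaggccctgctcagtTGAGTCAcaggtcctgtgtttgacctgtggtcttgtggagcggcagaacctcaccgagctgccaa
Tnfrsf8: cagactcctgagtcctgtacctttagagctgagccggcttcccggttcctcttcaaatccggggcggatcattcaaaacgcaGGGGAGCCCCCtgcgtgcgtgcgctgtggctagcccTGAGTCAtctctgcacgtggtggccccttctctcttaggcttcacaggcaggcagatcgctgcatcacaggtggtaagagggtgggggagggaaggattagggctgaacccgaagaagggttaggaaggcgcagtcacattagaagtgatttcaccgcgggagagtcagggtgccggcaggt
Tnfsf14: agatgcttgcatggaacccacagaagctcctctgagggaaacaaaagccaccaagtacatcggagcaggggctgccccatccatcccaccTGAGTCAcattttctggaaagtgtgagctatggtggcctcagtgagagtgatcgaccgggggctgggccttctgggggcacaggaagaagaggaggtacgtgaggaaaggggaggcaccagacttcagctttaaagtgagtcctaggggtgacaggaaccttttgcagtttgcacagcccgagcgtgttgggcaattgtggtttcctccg
Tnfrsf23: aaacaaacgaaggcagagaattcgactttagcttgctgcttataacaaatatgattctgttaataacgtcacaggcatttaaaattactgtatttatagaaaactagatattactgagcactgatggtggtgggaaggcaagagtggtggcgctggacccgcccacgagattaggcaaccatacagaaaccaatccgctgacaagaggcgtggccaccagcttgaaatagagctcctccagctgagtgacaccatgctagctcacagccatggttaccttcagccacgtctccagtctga

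Over all 32851 promoters in the table, 8.46% held the NF-κB motif and 7.81% the AP-1 site. These shares count promoter sequences, whereas members are counted below by gene, with a match in any of its promoters. By sequence, 4 of the 37 member promoters held the NF-κB motif and 6 the AP-1 site. Among the 7 members that were lower at an adjusted p under 0.1, all with a promoter on hand, 3 held the NF-κB motif (Ltb, Tnfrsf9, Tnfrsf8) and 3 the AP-1 site (Tnfrsf9, Tnfrsf8, Tnfsf14). Of the 4 members that were higher, Tnfrsf23 and Tnfrsf13b had a promoter on hand, and neither motif was in those letters. Among the other members, 24 had a promoter, 1 with the NF-κB motif (Tnfrsf25) and 2 with the AP-1 site (Fas, Tnfsf13b). These are letter matches in a short window, given as a description.

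Downstream of the receptors, a list of 39 adaptors, enzymes and NF-κB proteins held 1 call. The shares called over all genes were 1.03% lower and 0.370% higher. With dim genes left out, 200 of 11090 genes were called lower and 67 higher. Of 35 measured genes Otulin, which encodes an enzyme that removes linear ubiquitin chains from receptor complexes, fell, and 34 were not called; the list's median was -0.04. Otulin measured 8.65, 8.76 and 8.72 in vehicle and 8.09, 8.08 and 8.13 in icilin. Its groups were clearly apart, at -0.61 ± 0.06 (limma adjusted p = 0.00424), but without vehicle replicate 2 or with arrays centred on the median gene the difference came to -0.58 and the call ended. Short of 1.5-fold, 5 more genes were lower at an adjusted p under 0.1 and 1 was higher, and these are named for values already seen. Tnfaip3, for the ubiquitin-editing inhibitor A20, measured 7.74, 7.97 and 7.92 in vehicle and 7.32, 7.28 and 7.30 in icilin. Its icilin arrays all lay lower, with a difference of -0.58 ± 0.08 (limma adjusted p = 0.0116), the gene of this list just short of the fold limit. The NF-κB regulator Bcl3 differed by -0.47 ± 0.07, the NF-κB subunit gene Rel by -0.41 ± 0.09, and the adaptor genes Traf4 and Traf1 by -0.40 ± 0.07 and -0.32 ± 0.07 (limma adjusted p 0.0156 to 0.0666). Traf5, an adaptor of OX40, CD27 and other receptors, was the higher gene, at 5.70, 5.77 and 5.78 in vehicle and 6.33, 6.22 and 6.16 in icilin (0.49 ± 0.07, limma adjusted p = 0.0152). Other core genes stayed near 0, such as Nfkbia (0.00), Rela (-0.05), Ikbkb (0.01) and Tradd (-0.03), these named after their values were seen. Limma and SAM called 0 genes of the list higher, and an unadjusted p under 0.05 was reached by 2 on the higher side and 8 on the lower. All 35 were above the median gene, and in that part of the array 11.2% of genes were lower and 13.7% higher by the unadjusted p, and 5.13% and 3.89% by the adjusted p (8.05% and 9.09% by the unadjusted p over all genes). Traf3, Ripk1, Chuk and Nfkb1 were not analysed here.

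**Figure D4:**
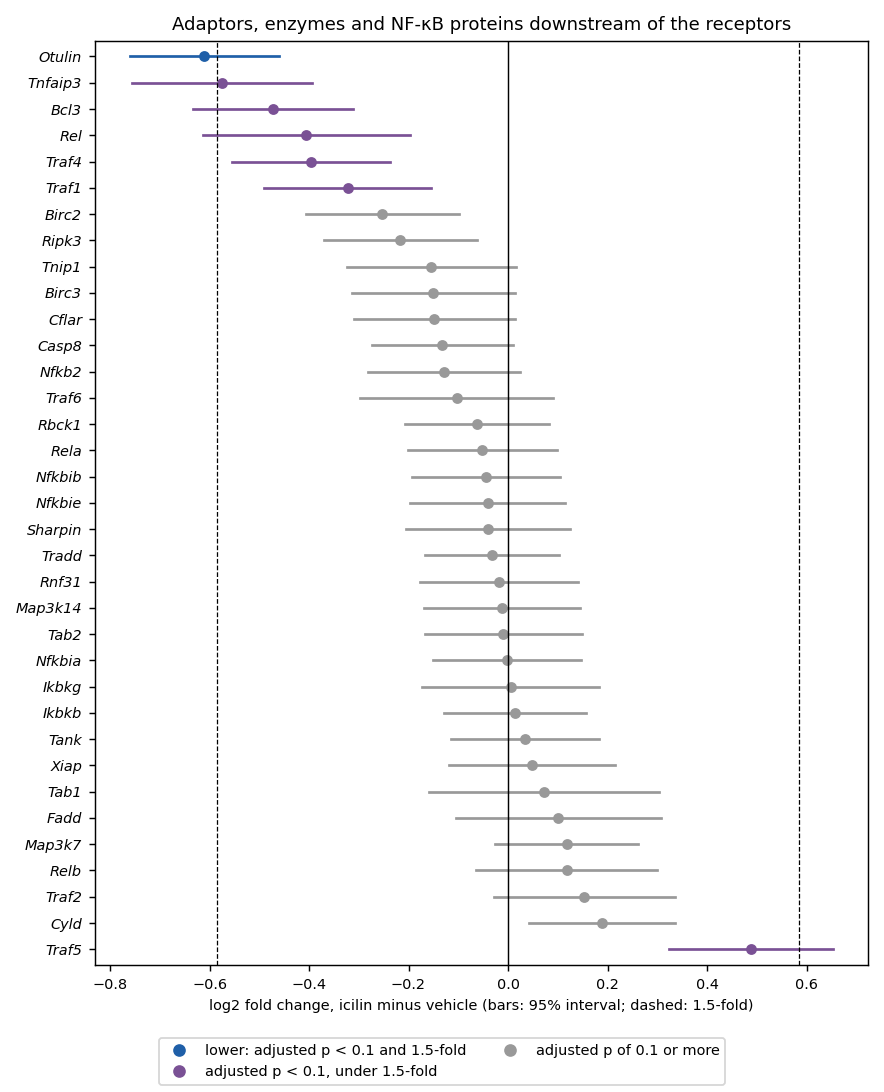
Log2 fold change, icilin minus vehicle, of 35 measured genes downstream of the receptors (points) with the 95% interval (bars, n = 3 arrays per group); dashed lines mark 1.5-fold. Otulin alone passes the lower line together with the adjusted p, Tnfaip3 (-0.58) stops just inside it, and Traf5 (0.49) is the highest.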

How the data were processed

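Total RNA (0.25 µg per sample, integrity number of at least 8) was hybridised to 6 arrays. The deposited values are log2 levels that the authors made with RMA, per the series design text; its version and the build of the probe annotation are not given in the sources used here. No step was redone. Of 41345 probe sets, 23521 carried 1 gene symbol, 1814 several and 16010 none; the first kind was used, with the brightest probe set per gene (22180 genes). Each member had 1 such probe set.

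Differences were fitted with limma 3.58.1 in R 4.3.3 (lmFit, eBayes; 4 residual and 3.07 prior degrees of freedom), without pairs, since no label says that a replicate number names a mouse. P-values are two-sided, adjusted by Benjamini-Hochberg over all genes. SAM was rewritten for this work with 20 label orders; both were tested on simulated data. RefSeq tables gave gene order and promoters, and Python 3.11.15 with pandas 2.3.3 and matplotlib 3.10.9 drew the figures. Members, roles, lists and tests were chosen with earlier results of these data known. Named genes were all members, with values per array where the adjusted p was under 0.1, called genes of the other lists (the 3 smallest p where none was called), and for markers the called genes and the extremes of level. Array values of Tnfsf9, Fas, Tnfrsf13c, Tnfaip3 and Traf5, and the other downstream, flanking and marker genes named, were chosen after their values were seen. Alternatives were the replicate block, an intensity trend with robust variances, 3 scalings, a filter on dim genes, probe set averaging, a fit over every probe set, leaving out each array, SAM and other call limits.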

Additional observations from a re-analysis of the deposited data

How the results depend on the processing

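Tnfrsf9, Tnfrsf26 and Tnfrsf23 were called under each of the 15 alternatives to the fit that were run, Ltb under 14 and Tnfsf14 under 13. Without the fold limit the members called numbered 7 lower and 4 higher at an adjusted p under 0.1, 6 lower and 4 higher at 0.05, and 1 lower and 1 higher at 0.05 with 2-fold; downstream genes then numbered 6 lower and 1 higher, 4 lower and 1 higher, and 0 lower. The downstream count of 1 became 2 with quantile normalization, which added Tnfaip3, 0 with arrays centred on the median gene, a setting chosen after seeing the data, and 0 to 2 with single arrays left out; members called lower then numbered 2 to 3. Same-numbered arrays did not deviate together (correlations of -0.005, -0.014 and -0.022). These values bear only on pairs by replicate number. No label ties that number to a mouse, so pairing by mouse was not tested. The replicate block called 210 genes lower and 73 higher over the whole array, against 229 and 82 without it. It kept all 5 called members. Signs turned for Tnfrsf1b when centred on the median gene (0.012). With single arrays left out they turned for Tnfsf4 (-0.021 to 0.18), Tnfsf13b (-0.11 to 0.10) and Tnfrsf1b (-0.083 to 0.054). They also turned then for Tnfrsf1a (-0.044 to 0.063), Ngfr (-0.25 to 0.11) and Tnfrsf12a (-0.053 to 0.22). These genes are 6 of the 30 members with an adjusted p of 0.1 or more, against 0 of the other 11. Those 11 were set apart by that p on these same arrays, so the 0 is no separate support. The files give no detection calls, so how far dim members stood above background is unknown.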
